A study of Homo sapiens with 60 samples.

Results

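The genes described are AHR, ARNT, AHRR, CYP1A1, CYP1B1, TIPARP and ALDH3A1, which encode the aryl hydrocarbon receptor, its partner, its repressor and 4 of its best known targets. They were named by symbol and are 7 of the 60675 genes in the deposited table of expected counts. All 7 passed the filter on low counts and so belong to the 17919 genes tested. The cells were SW1783, a line from a human astrocytoma, and their RNA was sequenced 24 h after treatment began. Treated groups received wortmannin, LY294002 and thioridazine, each at 10 µM, or a hot-water extract at 20, 100 or 500 µg/mL, named low, medium and high. The extracts are called peony (Paeoniae Radix), angelica (Angelicae Gigantis Radix), ginseng (Panax Ginseng), licorice (Glycyrrhizae Radix), atractylodes (Atractylodis Rhizoma) and poria (Poria Cocos). The vehicle was DMSO, at 0.1% by the sample labels but 2% by the text of the series. Wortmannin and LY294002 inhibit phosphoinositide 3-kinase, and thioridazine is a phenothiazine antipsychotic. Every group was the same cell line, so no genotype differed. There were 22 groups and 60 libraries, with 3 libraries in 16 groups. The 6 groups of angelica and peony have 2 libraries each, and a replicate 3 of them was not analysed here. Nothing in the labels says that replicates were separate cultures, so p-values here reflect only how libraries scatter, which may be technical.

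The aryl hydrocarbon receptor (AhR) is a transcription factor that waits in the cytoplasm, bound to HSP90 and its co-chaperones, until a small planar molecule binds it. Dioxins, combustion products, many plant flavonoids and tryptophan metabolites are ligands. The bound receptor enters the nucleus, pairs with ARNT and binds the xenobiotic response element, whose core is GCGTG. Its classical targets are the monooxygenases CYP1A1 and CYP1B1, which oxidise polycyclic hydrocarbons and oestrogens, and ALDH3A1, which oxidises aldehydes. AHRR competes with the receptor for ARNT, and TIPARP adds ADP-ribose to the receptor, so both limit the response they are part of. CYP1B1 is known as the CYP1 enzyme of many cells outside the liver.

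In the coordinates of GRCh38 and the GENCODE 29 annotation, CYP1B1 (ENSG00000138061) lies on the minus strand at chr2:38066973-38109902, CYP1A1 (ENSG00000140465) on the minus strand at chr15:74719542-74725610 and ALDH3A1 (ENSG00000108602) on the minus strand at chr17:19737984-19748943. AHRR (ENSG00000063438) lies on the plus strand at chr5:304176-438291 and TIPARP (ENSG00000163659) on the plus strand at chr3:156673235-156706770. AHR (ENSG00000106546) lies on the plus strand at chr7:16916359-17346152 and ARNT (ENSG00000143437) on the minus strand at chr1:150809705-150876768. RefSeq promoter windows of build GRCh38.p14, from 250 bases before to 50 bases after a gene start, were at hand for 5 of the 7 genes, namely AHR, ARNT, AHRR, CYP1A1 and TIPARP. The windows below are shown because CYP1A1, AHRR and TIPARP moved together under the peony and poria extracts, and because they hold the core of the response element. Capitals mark GCGTG on the strand of the gene or, as CACGC, on the other strand.
CYP1A1 (chr15:74725479-74725778, minus strand): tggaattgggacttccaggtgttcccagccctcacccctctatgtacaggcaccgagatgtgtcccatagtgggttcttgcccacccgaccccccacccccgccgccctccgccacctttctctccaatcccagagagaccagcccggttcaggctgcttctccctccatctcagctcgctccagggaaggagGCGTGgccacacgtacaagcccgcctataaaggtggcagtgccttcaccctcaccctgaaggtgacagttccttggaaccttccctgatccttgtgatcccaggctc
AHRR, first start (chr5:321464-321763, plus strand): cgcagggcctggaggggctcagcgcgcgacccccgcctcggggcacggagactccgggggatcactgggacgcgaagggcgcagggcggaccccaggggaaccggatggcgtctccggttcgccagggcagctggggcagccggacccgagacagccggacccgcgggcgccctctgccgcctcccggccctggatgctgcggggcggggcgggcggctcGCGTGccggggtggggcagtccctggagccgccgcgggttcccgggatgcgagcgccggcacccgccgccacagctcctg
AHRR, second start (chr5:322360-322659, plus strand): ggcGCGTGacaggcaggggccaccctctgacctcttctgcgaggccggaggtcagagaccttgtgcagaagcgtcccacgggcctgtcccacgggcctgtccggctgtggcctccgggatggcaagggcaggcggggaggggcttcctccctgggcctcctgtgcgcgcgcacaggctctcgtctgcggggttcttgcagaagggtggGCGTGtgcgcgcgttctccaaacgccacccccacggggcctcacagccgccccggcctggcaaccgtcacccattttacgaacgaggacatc
TIPARP, first start (chr3:156674340-156674639, plus strand): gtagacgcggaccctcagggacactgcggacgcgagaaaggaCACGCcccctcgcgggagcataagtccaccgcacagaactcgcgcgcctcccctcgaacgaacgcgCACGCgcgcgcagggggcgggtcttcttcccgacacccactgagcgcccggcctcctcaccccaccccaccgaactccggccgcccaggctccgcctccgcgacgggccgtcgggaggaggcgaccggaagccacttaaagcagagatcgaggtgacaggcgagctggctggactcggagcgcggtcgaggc
The core stood 57 bases before the CYP1A1 start, 30 bases before the first AHRR start, 247 and 42 bases before the second AHRR start, and 208 and 142 bases before the first TIPARP start. The AHR window held 1 core, 37 bases after the start, and the ARNT window and the other 2 TIPARP windows (chr3:156674676-156674975 and chr3:156676414-156676713) held 0. On either strand, 36.5% of all 35116 promoter windows of this length held the core at least once, and 12.7% held it at least 2 times. These shares were not matched for base content. G and C made up 61.0% of the CYP1A1 window, 79.3% and 69.7% of the AHRR windows and 71.0% of the TIPARP window shown. The median over all windows was 58.7%. A match of 5 letters is a description of the sequence and not a measured site.

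The libraries held 19.45 to 30.87 M counts each. Replicate 1 of peony high had the smallest total, at 19.45 M, and stood apart. It held at least 1 count for 19983 of the 42756 genes left out by the filter, against 4782 to 6040 of them in each of the other 59 libraries, and those genes took 0.445% of its counts. GFAP, AQP4 and ALDH1L1, astroglial genes that were near 0 elsewhere, reached their highest counts there, 26, 21 and 27. CYP1A1 and ALDH3A1 have few counts, so the results on peony high are also given without that library. Of 8 astroglial markers, VIM, SOX9, SLC1A3 and NES passed the filter, while GFAP, S100B, AQP4 and ALDH1L1 averaged 0.08, 0.12, 0.01 and 0.01 CPM in vehicle libraries. In those libraries VIM averaged 6017, SOX9 81.37, SLC1A3 21.87 and NES 6.23 CPM, and the fibroblast collagen COL1A1 averaged 4247 CPM. Thus the defining genes of mature astrocytes were near 0, while genes shared by immature glia and other cells were detected.

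Levels are CPM, counts divided by the library size after TMM scaling and brought to a common size, and differences are log2 fold changes ± SE from edgeR's quasi-likelihood test, called where the p adjusted by the Benjamini-Hochberg method over all genes was under 0.05. Per kilobase of annotated exon, CYP1B1 was the most abundant of the 7 genes in vehicle libraries, at 19.39 CPM per kb. TIPARP followed at 11.52, AHR at 10.67, ARNT at 7.82 and AHRR at 5.70 CPM per kb. CYP1A1 stood at 0.27 and ALDH3A1 at 0.06 CPM per kb. Thus CYP1B1 was the main CYP1 transcript of these cells, with 1896 to 6768 counts per library, while CYP1A1 had 9 to 75 and ALDH3A1 2 to 55. The other ranges were 1853 to 3305 counts for AHR, 1004 to 1691 for ARNT, 805 to 1916 for AHRR and 1006 to 2663 for TIPARP.

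Every one of the 7 genes differed somewhere among the 22 groups by edgeR's F-test over all groups, as did 71.7% of all genes tested. CYP1B1 had the largest statistic of the 7 (F = 39.34, adjusted p = 5.43e-23), and 2.77% of all genes had a larger one. TIPARP came next (F = 26.49, adjusted p = 1.26e-18), with 4.98% of genes above it. ARNT varied least, from a lowest group mean of 48.05 to a highest of 59.36 CPM (adjusted p = 0.0151). The highest group mean was 11.0 times the lowest for ALDH3A1, 4.95 times for CYP1A1, 2.46 times for CYP1B1, 2.10 times for TIPARP, 1.93 times for AHRR, 1.44 times for AHR and 1.24 times for ARNT. Against vehicle, CYP1B1 was called higher in 7 and lower in 1 of the 21 treated groups. TIPARP was called higher in 5 and lower in 4, AHRR higher in 4 and lower in 1, and ALDH3A1 higher in 4. CYP1A1 and AHR were called higher in 2 groups each, and ARNT in 1. The share of all genes called against vehicle ran from 0.419% (poria low) to 48.4% (thioridazine). In how many groups other genes were called was not counted, so a low count here is no trait of these genes. The 3 vehicle libraries serve all of these comparisons.

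**Figure D1:**
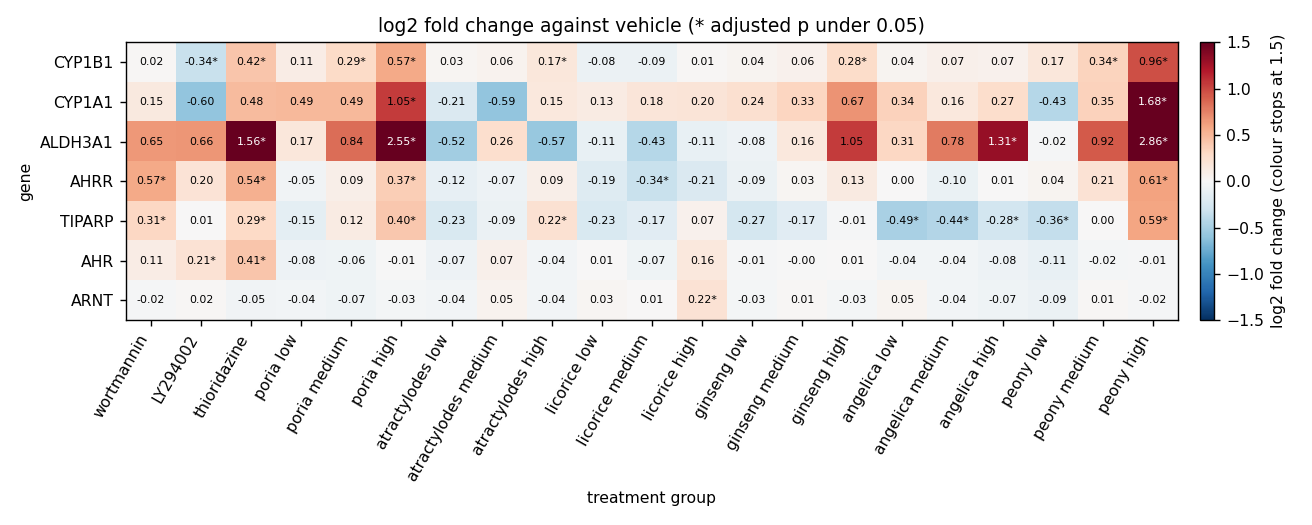
Log2 fold change against vehicle of the 7 genes (rows) in the 21 treated groups (columns), coloured from -1.5 to 1.5, with the value in each cell and a star where edgeR's adjusted p was under 0.05. Stars cover 5 target genes for peony high and poria high, and AHR carries a star for LY294002 and thioridazine only.

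With the 500 µg/mL peony extract CYP1B1, CYP1A1, ALDH3A1, AHRR and TIPARP all rose, while AHR and ARNT, the receptor itself, were not called. Thus 5 of 7 genes were called, all higher, where 20.7% of all genes were called in that comparison. The median log2 fold change of the 7 genes was 0.61, against 0.03 over all genes tested. CYP1B1 had 220.1 and 234.7 CPM in the peony high libraries, against 119.5, 116.4 and 114.0 CPM in vehicle libraries. Both peony libraries were far above every vehicle library, a log2 fold change of 0.96 ± 0.06 (edgeR, adjusted p = 5.4e-18), or 1.95-fold. Peony high and vehicle libraries were apart, in either direction, for 48.4% of all genes tested, so a lack of overlap is common with so few libraries. CYP1A1 had 3.43 and 2.60 CPM in peony high libraries, against 0.90, 1.17 and 0.71 CPM in vehicle libraries. The groups did not overlap, and the rise was 1.68 ± 0.23 (adjusted p = 1.86e-07). ALDH3A1 had 1.59 and 1.91 CPM in peony high libraries, against 0.24, 0.21 and 0.26 CPM in vehicle libraries. It was close to silent without treatment, and its 2.86 ± 0.36 was the largest estimated fold of the 7 genes (adjusted p = 2.79e-08). Each of the 5 estimates was the highest of that gene among the 21 comparisons with vehicle, but poria high came within the error for ALDH3A1 (2.55 ± 0.34) and wortmannin (0.57 ± 0.09) and thioridazine (0.54 ± 0.09) for AHRR, and peony was compared directly with none of them.

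Both genes that restrain the receptor also rose with peony high. AHRR had 67.06 and 66.44 CPM in peony high libraries, against 42.41, 44.01 and 44.84 CPM in vehicle libraries, a log2 fold change of 0.61 ± 0.10 (adjusted p = 1.32e-05). TIPARP had 82.16 and 92.35 CPM in peony high libraries, against 58.53, 58.39 and 57.56 CPM in vehicle libraries, a log2 fold change of 0.59 ± 0.08 (adjusted p = 5.66e-08). For either gene both peony libraries lay above every vehicle library, where 48.4% of all genes had these 2 groups apart. AHR had 90.26 and 80.70 CPM in peony high libraries, on both sides of the 84.99 to 88.04 CPM in vehicle libraries, and its 95% interval on the log2 scale ran from -0.17 to 0.14. ARNT had 48.43 and 52.02 CPM in peony high libraries and 48.54 to 52.61 CPM in vehicle libraries, with an interval from -0.15 to 0.11.

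Without replicate 1 of peony high, the library with counts on otherwise silent genes, the same 5 genes were called, where 7.4% of the 18247 genes then tested were called, and the median log2 fold change of the 7 genes was 0.67. CYP1B1 was then at 1.01 ± 0.07, TIPARP at 0.67 ± 0.09, AHRR at 0.60 ± 0.12, CYP1A1 at 1.48 ± 0.27 and ALDH3A1 at 2.97 ± 0.41 on the log2 scale. In this fit the single remaining peony high library is assumed to vary like the other groups. CYP1A1 was the one target whose fold was smaller by over 0.1 without it.

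Poria at 500 µg/mL raised the same 5 target genes by smaller folds and likewise left AHR and ARNT uncalled, where 11.6% of all genes were called. The median log2 fold change of the 7 genes was 0.40, against 0.01 over all genes. CYP1B1 had 179.8, 172.9 and 166.5 CPM in poria high libraries, against 114.0 to 119.5 CPM in vehicle libraries, a log2 fold change of 0.57 ± 0.06 (edgeR, adjusted p = 5e-11). CYP1A1 had 1.76, 2.39 and 1.64 CPM in poria high libraries, against 0.71 to 1.17 CPM in vehicle libraries (1.05 ± 0.22, adjusted p = 0.000628). ALDH3A1 had 1.21, 1.48 and 1.57 CPM in poria high libraries, against 0.21 to 0.26 CPM in vehicle libraries (2.55 ± 0.34, adjusted p = 1.81e-07). The 3 poria libraries lay above all vehicle libraries for each of these enzymes, where 34.4% of all genes had poria high and vehicle apart. AHRR had 54.65 to 60.04 CPM in poria high libraries, against 42.41 to 44.84 CPM in vehicle libraries (0.37 ± 0.09), and TIPARP had 75.18 to 78.05 CPM, against 57.56 to 58.53 CPM (0.40 ± 0.07). Among the alternatives that gave a value, none ended any of the 10 target calls for peony high and poria high.

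**Figure D2:**
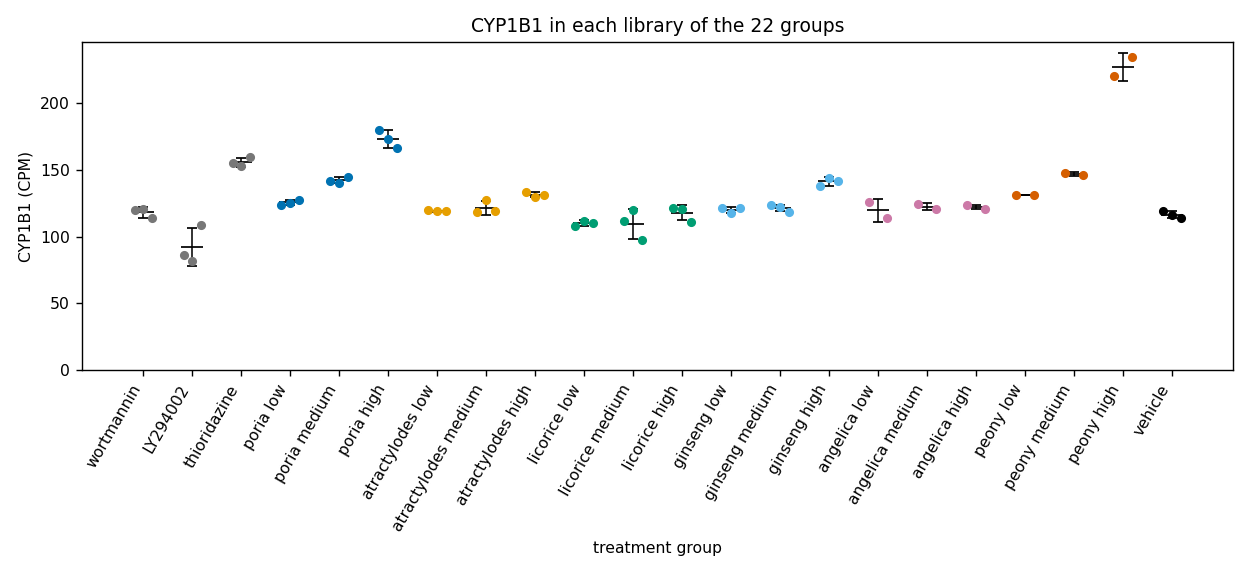
CYP1B1 level (CPM, vertical axis from 0) in each library (points) of the 22 groups (horizontal axis), with the group mean and SD as bars. Peony high (220.1 and 234.7 CPM) and poria high (166.5 to 179.8 CPM) stand highest, and LY294002 lowest (81.45 to 108.8 CPM).

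In the order of its group means, CYP1B1 was highest in peony high (227.4 ± 10.0 CPM, SD, n = 2), then poria high (173.1 ± 6.6, n = 3), thioridazine (155.9 ± 3.2, n = 3), peony medium (147.1 ± 1.3, n = 2), poria medium (142.4 ± 2.2, n = 3) and ginseng high (141.4 ± 3.2, n = 3). The libraries of neighbouring groups in this order did not overlap down to poria medium, whereas poria medium and ginseng high overlapped. Over the whole order, 7 of 21 neighbouring pairs were apart and 14 overlapped, so most of the middle of the order cannot be ranked. At the low end were vehicle (116.6 ± 2.8, n = 3), licorice low (110.1 ± 2.1, n = 3), licorice medium (109.6 ± 12.0, n = 3) and LY294002 (92.27 ± 15.0, n = 3).

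The vehicle libraries carry a sample code of their own, and drugs and extracts were coded in separate sets, so a difference between sets and a treatment effect cannot be told apart against vehicle. Doses of 1 extract share a set, and the high and low doses were therefore compared directly. Peony high exceeded peony low in the same 5 target genes, where 5.9% of all genes were called. CYP1B1 had 131.0 and 131.1 CPM at 20 µg/mL, 148.0 and 146.1 CPM at 100 µg/mL and 220.1 and 234.7 CPM at 500 µg/mL, so the libraries of the 3 doses were in dose order without overlap. Peony high and low libraries were apart for 47.5% of all genes. High against low, the log2 fold change of CYP1B1 was 0.80 ± 0.07 (edgeR, adjusted p = 5.55e-13). CYP1A1 had 0.55 and 0.84 CPM at 20 µg/mL, 1.10 and 1.27 CPM at 100 µg/mL and 3.43 and 2.60 CPM at 500 µg/mL, and high exceeded low by 2.11 ± 0.27 (adjusted p = 1.25e-07). TIPARP had 42.02 and 49.02, then 58.48 and 57.95, then 82.16 and 92.35 CPM at the rising doses, and high exceeded low by 0.94 ± 0.09 (adjusted p = 6.47e-12). AHRR exceeded its low dose by 0.57 ± 0.11 and ALDH3A1 by 2.88 ± 0.42. Without replicate 1 of peony high these 5 differences were 0.84 for CYP1B1, 1.91 for CYP1A1, 1.02 for TIPARP, 0.56 for AHRR and 3.00 for ALDH3A1, all still called.

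Poria high exceeded poria low in 4 of the 7 genes, where 5.51% of all genes were called and 25.3% had these groups apart. CYP1B1 had 124.1, 125.5 and 127.7 CPM at 20 µg/mL, 142.1, 140.4 and 144.7 CPM at 100 µg/mL and 179.8, 172.9 and 166.5 CPM at 500 µg/mL, again in dose order without overlap (high against low 0.46 ± 0.06, adjusted p = 3.14e-08). TIPARP rose by 0.55 ± 0.07, AHRR by 0.42 ± 0.09 and ALDH3A1 by 2.38 ± 0.34 between the low and the high dose of poria. CYP1A1 had 1.64 to 2.39 CPM at the high dose of poria and 1.12 to 1.40 CPM at the low dose, and its 0.56 ± 0.21 was not called (adjusted p = 0.113). TIPARP was called higher at the high than at the low dose in 4 of the 6 extracts, also for atractylodes (0.45 ± 0.07, where 4.1% of all genes were called) and licorice (0.29 ± 0.07, where 18.2% were called, ARNT being the other member called there). For ginseng, where 0.653% of all genes were called, the main fit called only CYP1B1 of the 7 higher at the high dose (0.23 ± 0.06, adjusted p = 0.0252). Leaving out any 1 of the 6 libraries ended that call, at values from 0.22 to 0.25 and adjusted p from 0.052 to 0.143. TIPARP, not called in the main fit, was called at 0.25 by edgeR without the filter (adjusted p = 0.00613) and with the replicate block (adjusted p = 0.008). It was also called by DESeq2 (0.25, adjusted p = 0.044) and by edgeR without ginseng high replicate 1 (0.31, adjusted p = 0.0422). For angelica, where 0.943% of all genes were called, edgeR called 0 of the 7 genes between high and low, with 2 at an unadjusted p under 0.05 (TIPARP and ALDH3A1) and 0 by DESeq2.

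**Figure D3:**
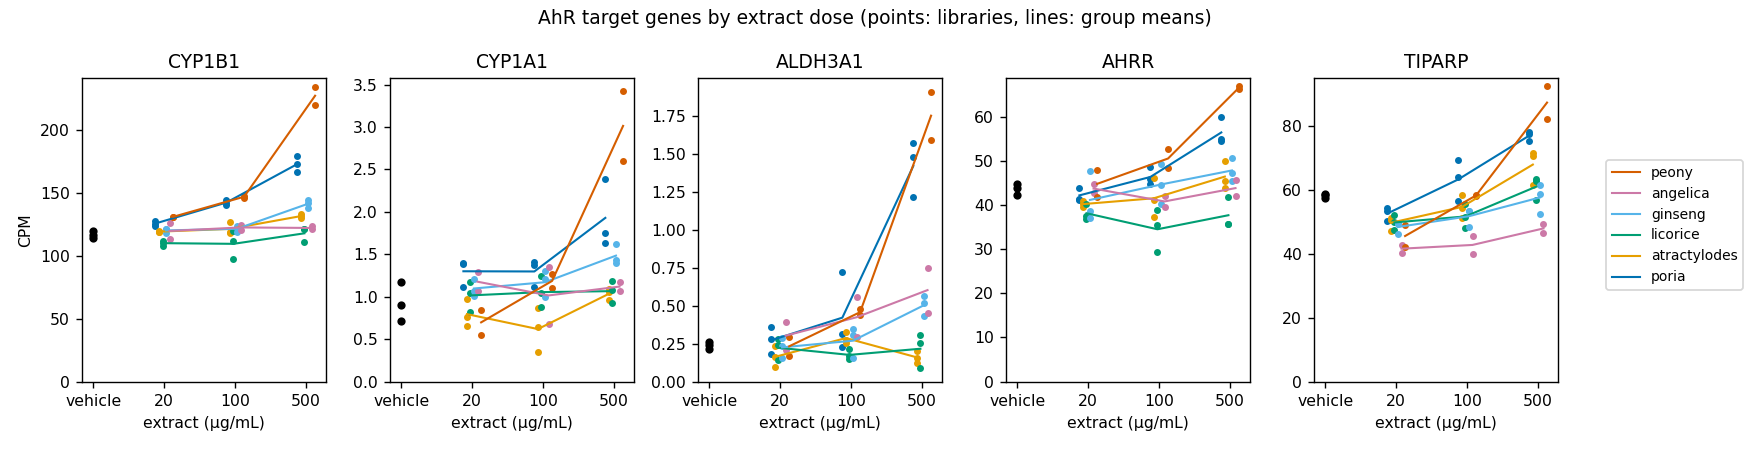
CPM of the 5 target genes (panels, vertical axes from 0) in vehicle libraries and at 20, 100 and 500 µg/mL of each extract, with points for libraries and lines through the group means of an extract. The peony line is highest at 500 µg/mL in all 5 panels, with poria next.

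At the medium doses CYP1B1 was the target called with both extracts. Peony medium raised it to 148.0 and 146.1 CPM, against 114.0 to 119.5 CPM in vehicle libraries (0.34 ± 0.06, adjusted p = 0.000583), as the only call among the 7 genes where 2.55% of all genes were called. Poria medium raised it to 140.4 to 144.7 CPM (0.29 ± 0.06, adjusted p = 0.00162), again the only call, where 1.47% were called. At the low dose of poria, where 0.419% of all genes were called, edgeR called 0 of the 7 genes, with 2 at an unadjusted p under 0.05 (CYP1A1 and TIPARP) and 0 by DESeq2. At the low dose of peony, CYP1B1 had 131.0 and 131.1 CPM, above every vehicle library, and was not called. It was called at 0.17 for 2 groups alone (edgeR, adjusted p = 0.00142) and without 5 libraries together (adjusted p = 0.0434). Peony low and vehicle libraries were apart for 41.7% of all genes.

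The other extracts at 500 µg/mL moved fewer of these genes. Ginseng high raised CYP1B1 to 138.0, 144.3 and 142.0 CPM, against 114.0 to 119.5 CPM in vehicle libraries (0.28 ± 0.06, adjusted p = 0.000775), where 7.25% of all genes were called. CYP1A1 had 1.40, 1.62 and 1.43 CPM in ginseng high libraries and missed the threshold (0.67 ± 0.22, edgeR, adjusted p = 0.0544). In edgeR it was called with the replicate block (adjusted p = 0.0494), for 2 groups alone (0.039), without 5 libraries together (0.0414) and without vehicle replicate 2 (0.0367). For CYP1A1 the ginseng high libraries were all above the highest vehicle library, where 32.3% of all genes had ginseng high and vehicle apart. Atractylodes high raised CYP1B1 to 130.0 to 133.4 CPM (0.17 ± 0.06, adjusted p = 0.0288) and TIPARP to 61.40 to 71.57 CPM (0.22 ± 0.07, adjusted p = 0.0227), where 13.9% of all genes were called. Those calls depend on single libraries. The CYP1B1 call was lost without vehicle replicate 2 or 3 or atractylodes high replicate 1, at values of 0.18, 0.16 and 0.17. The TIPARP call was lost without vehicle replicate 1 or 3 or atractylodes high replicate 2 or 3, at values of 0.23, 0.22, 0.18 and 0.20. Both were lost in a fit of the 2 groups alone, at an unchanged fold and adjusted p of 0.0644 for CYP1B1 and 0.0918 for TIPARP.

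With licorice high edgeR called ARNT and none of the targets, where 30.9% of all genes were called. AHRR, at 35.72 to 41.85 CPM, lay below every vehicle library and missed the threshold (-0.21 ± 0.09, adjusted p = 0.0787). It was called lower without the filter, with the replicate block, for 2 groups alone and without licorice high replicate 1. AHR lay above every vehicle library and missed the threshold too (0.16 ± 0.07, adjusted p = 0.0712). Licorice high and vehicle libraries were apart, in either direction, for 46.8% of all genes. AHR was called higher without the filter, for 2 groups alone and without 5 libraries together. RLE scaling and DESeq2 called neither. ARNT had 58.43, 58.77 and 60.89 CPM in licorice high libraries, against 51.75, 48.54 and 52.61 CPM in vehicle libraries. All 3 licorice libraries lay above every other group's mean, and the log2 fold change was 0.22 ± 0.06 (adjusted p = 0.00241). Against licorice low, ARNT was higher by 0.19 ± 0.06 (adjusted p = 0.014), and without licorice high replicate 3 this was 0.17 with an adjusted p of 0.0705. CYP1B1 in licorice high libraries, at 111.3 to 121.5 CPM, overlapped vehicle, with a 95% interval of the log2 fold change from -0.10 to 0.13. Licorice medium lowered AHRR to 38.91, 35.51 and 29.31 CPM, against 42.41 to 44.84 CPM in vehicle libraries (-0.34 ± 0.09, adjusted p = 0.00556), where 25.2% of all genes were called. Without licorice medium replicate 3, the lowest library, the change was -0.23 and was not called.

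TIPARP was called below vehicle at every dose of angelica, with the smallest fall at the high dose. This was not particular to angelica, since all 16 low-dose libraries of the 6 extracts also lay below every vehicle library. The share of all genes for which that held was not counted. A shared offset of the vehicle libraries cannot be told apart from the extract here. TIPARP had 40.36 and 42.75 CPM in angelica low libraries, 39.92 and 45.53 in angelica medium and 46.53 and 49.26 in angelica high, all below the 57.56 to 58.53 CPM of vehicle libraries. The log2 fold changes were -0.49 ± 0.08 at the low dose (1.75% of all genes called), -0.44 ± 0.08 at the medium dose (2.91%) and -0.28 ± 0.08 at the high dose (6.46%). Angelica and vehicle libraries were apart for 28.8% of all genes at the low dose, 40.5% at the medium and 44.2% at the high dose. ALDH3A1 was the other call for angelica high, with 0.45 and 0.75 CPM there, against 0.21 to 0.26 CPM in vehicle libraries (1.31 ± 0.42, adjusted p = 0.0438). Leaving out any 1 of the 5 libraries ended the ALDH3A1 call, with values from 0.91 to 1.63, as did testing without the filter (adjusted p = 0.0894). The TIPARP call at the high dose was lost without vehicle replicate 1 (-0.28), vehicle replicate 2 (-0.28), angelica high replicate 1 (-0.24) or angelica high replicate 2 (-0.33), and at the medium dose without angelica medium replicate 1 (-0.36).

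TIPARP was below vehicle at the low dose of the other extracts too. All 16 low-dose libraries of the 6 extracts, at 40.36 to 54.22 CPM, lay under the lowest vehicle library. Taken singly, a low dose and vehicle were apart, in either direction, for 17.5% (ginseng) to 41.7% (peony) of all genes. How many genes had all 16 libraries on 1 side of vehicle was not counted, so this pattern cannot be called particular to TIPARP. Peony low was called (-0.36 ± 0.08, adjusted p = 0.00383, where 5.23% of all genes were called), and was -0.25 and not called without peony low replicate 1. For the lower doses that remain, the main edgeR fit called 0 of the 7 genes. These were atractylodes medium (1.06% of all genes called), atractylodes low (0.804%), licorice low (3.29%), ginseng medium (0.569%) and ginseng low (0.592%). At an unadjusted p under 0.05 there was 1 gene each for atractylodes medium (CYP1A1), atractylodes low (TIPARP), ginseng medium (TIPARP) and ginseng low (TIPARP), and 2 for licorice low (AHRR and TIPARP). DESeq2 called TIPARP lower for atractylodes low, licorice low and ginseng low, and no member for atractylodes medium and ginseng medium. With the replicate block edgeR also called TIPARP lower for atractylodes low (-0.23, adjusted p = 0.0181), licorice low (-0.23, adjusted p = 0.00877) and ginseng low (-0.27, adjusted p = 0.00382). So did edgeR without the filter and for 2 groups alone. The vehicle is 1 set of 3 libraries, and what a shared offset of those libraries adds to these differences cannot be told apart from the extracts.

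Extracts of the same set were compared at 500 µg/mL. Angelica high was below peony high in the 5 target genes, where 4.34% of all genes were called. CYP1B1 had 123.4 and 121.0 CPM in angelica high libraries, against 220.1 and 234.7 CPM in peony high libraries (-0.90 ± 0.07, adjusted p = 1.08e-14), and TIPARP differed by -0.87 ± 0.09, AHRR by -0.60 ± 0.11 and CYP1A1 by -1.41 ± 0.25. ALDH3A1 differed by -1.54 ± 0.36, and by -1.22 with no call without angelica high replicate 1, and the 2 groups alone gave an adjusted p of 0.0559. Without peony high replicate 1 all 5 stayed called, CYP1B1 at -0.94, TIPARP at -0.95, AHRR at -0.60, CYP1A1 at -1.21 and ALDH3A1 at -1.66. Poria high was above atractylodes high in CYP1B1 (0.39 ± 0.06), CYP1A1 (0.89 ± 0.22), ALDH3A1 (3.12 ± 0.37) and AHRR (0.28 ± 0.09), where 16.6% of all genes were called. The AHRR difference lost its call without poria high replicate 1 (0.24), atractylodes high replicate 1 (0.24) or atractylodes high replicate 3 (0.26). Licorice high was above ginseng high in ARNT (0.25 ± 0.06) and below it in AHRR (-0.34 ± 0.09), CYP1B1 (-0.26 ± 0.06) and ALDH3A1 (-1.17 ± 0.40), where 34.2% of all genes were called. That ALDH3A1 call was lost without ginseng high replicate 1 (-1.08) or licorice high replicate 2 (-0.83) and with DESeq2 (adjusted p = 0.0515).

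Thioridazine raised AHR itself together with its targets. The genes AHR, AHRR, CYP1B1, TIPARP and ALDH3A1 were called higher, 5 of 7, where 48.4% of all genes were called, and the median log2 fold change of the 7 genes was 0.42 against 0.02 over all genes. AHR had 109.9, 111.4 and 123.3 CPM in thioridazine libraries, against 88.04, 85.55 and 84.99 CPM in vehicle libraries (0.41 ± 0.07, adjusted p = 1.93e-06). Thioridazine and vehicle libraries did not overlap, as was so for 59.3% of all genes. The thioridazine mean was the highest AHR mean of the 22 groups, but its libraries overlapped the 93.86 to 111.4 CPM of LY294002, and so did the libraries of all 21 neighbouring pairs in the order of AHR means. CYP1B1 had 155.4, 152.9 and 159.4 CPM in thioridazine libraries, against 114.0 to 119.5 CPM in vehicle libraries (0.42 ± 0.06, adjusted p = 7.29e-09). ALDH3A1 had 0.82, 0.79 and 0.52 CPM in thioridazine libraries, against 0.21 to 0.26 CPM in vehicle libraries (1.56 ± 0.37, adjusted p = 0.000332). AHRR was at 62.74 to 64.56 CPM (0.54 ± 0.09) and TIPARP at 70.68 to 72.14 CPM (0.29 ± 0.07) in thioridazine libraries. CYP1A1 had 1.18, 1.295 and 1.42 CPM there, all above the vehicle libraries, and missed the threshold (0.48 ± 0.23, adjusted p = 0.0797). The marker lists of astroglia and of other cell types also moved with thioridazine. The summed astroglial markers were at 4343 to 4495 CPM in thioridazine libraries and 5959 to 6262 CPM in vehicle libraries. Neuronal markers summed to 84.13 to 89.31 CPM with thioridazine and 56.62 to 58.99 CPM with vehicle. Oligodendrocyte markers summed to 9.205 to 11.08 CPM with thioridazine and 5.24 to 5.708 CPM with vehicle. The summed level of the 3 epithelial markers was 78.45 to 79.68 CPM in thioridazine libraries and 239.4 to 248.1 CPM in vehicle libraries, and that of the 2 fibroblast markers was 2693 to 2814 and 4260 to 4331 CPM. The 2 blood markers summed to 228.5 to 237.6 CPM in thioridazine libraries and 169.7 to 182.4 CPM in vehicle libraries. Licorice high had epithelial sums of 121.2 to 123.3 CPM, peony high 196.7 to 207.8, poria high 201.8 to 203.9, wortmannin 241.1 to 249.3 and LY294002 265.6 to 299.2 CPM. Their fibroblast sums were 2762 to 3145 CPM in licorice high, 3442 to 3732 in peony high, 3466 to 3578 in poria high, 3790 to 3950 with wortmannin and 4349 to 4621 with LY294002. In vehicle libraries KRT18 averaged 224.1, COL1A1 4247 and CD68 169.1 CPM, most of the epithelial, fibroblast and blood sums. The samples were 1 cell line, so these sums are levels of a few genes and not shares of cell types. The part of these shifts in the changes of the 7 genes was not tested. In bulk RNA, fewer cells expressing a marker and less of its RNA per cell cannot be told apart.

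The 2 kinase inhibitors differed. Wortmannin raised AHRR and TIPARP, where 31.7% of all genes were called. AHRR had 62.02, 67.16 and 66.01 CPM in wortmannin libraries, against 42.41 to 44.84 CPM in vehicle libraries (0.57 ± 0.09, adjusted p = 1.43e-06). TIPARP had 72.55, 76.70 and 66.42 CPM in wortmannin libraries, against 57.56 to 58.53 CPM in vehicle libraries (0.31 ± 0.07, adjusted p = 0.000352). CYP1B1, at 113.7 to 121.0 CPM in wortmannin libraries, overlapped vehicle, with a 95% interval of the log2 fold change from -0.09 to 0.13.

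LY294002 lowered CYP1B1, the one called fall of that gene among the 21 comparisons with vehicle, where 39.3% of all genes were called. CYP1B1 had 86.57, 81.45 and 108.8 CPM in LY294002 libraries, against 119.5, 116.4 and 114.0 CPM in vehicle libraries (-0.34 ± 0.06, adjusted p = 3.19e-06). LY294002 replicate 3 lay nearer to vehicle than the others, and a fit of these 2 groups alone gave the same fold with an adjusted p of 0.054, the largest of its alternatives. AHR rose with LY294002 to 111.4, 94.51 and 93.86 CPM (0.21 ± 0.07, adjusted p = 0.0134), but the call rests on replicate 1, without which the change was 0.14 and not called. AHRR had 47.13, 43.95 and 59.85 CPM in LY294002 libraries and was not called (adjusted p = 0.0702), and without replicate 1 or 2 of LY294002 it was called at 0.26 and 0.30. CYP1A1 had 0.50, 0.56 and 0.77 CPM in LY294002 libraries and was not called (-0.60 ± 0.26, adjusted p = 0.065), whereas it was called at -0.74 without vehicle replicate 3 and at -0.80 without LY294002 replicate 3.

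**Figure D4:**
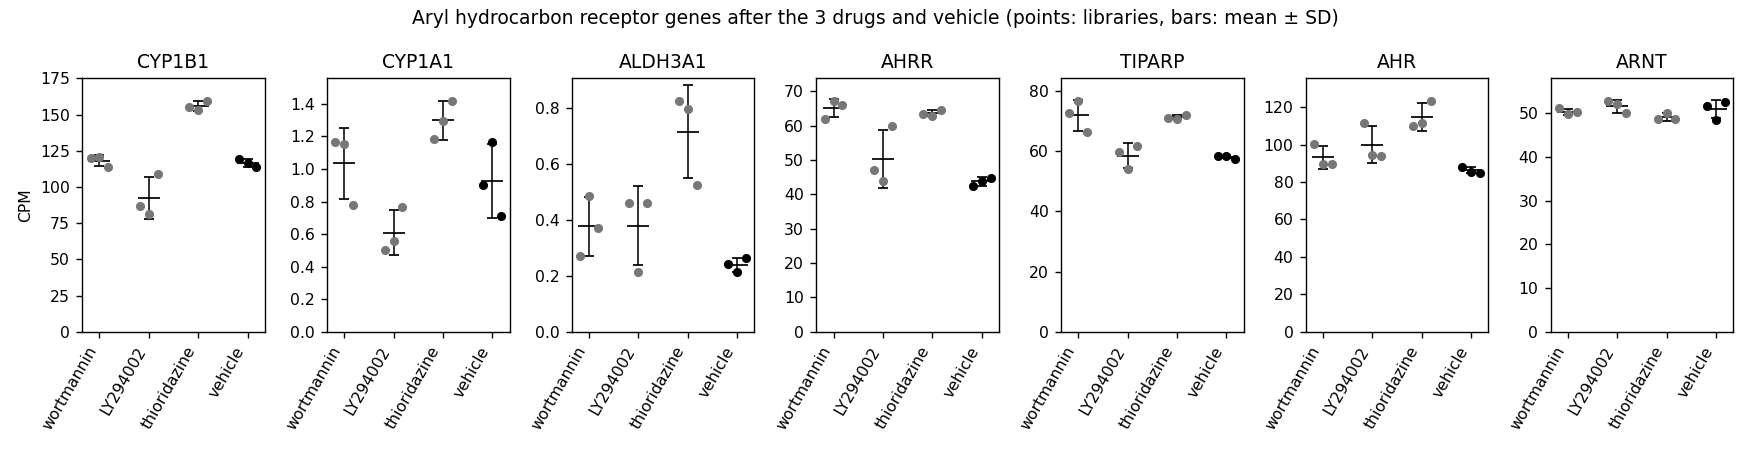
CPM of the 7 genes (panels, vertical axes from 0) after wortmannin, LY294002 and thioridazine and in vehicle libraries, with points for libraries and bars for mean and SD (n = 3 each). Thioridazine has the highest CYP1B1 and AHR, and LY294002 the lowest CYP1B1.

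The 3 drugs were compared with each other in 3 pairs at the same dose and time, with p-values adjusted over all genes within a pair. Wortmannin and LY294002 both block phosphoinositide 3-kinase but belong to different chemical classes, a fungal steroid-like product and a synthetic chromone. Wortmannin was above LY294002 in AHRR (0.37 ± 0.09), CYP1B1 (0.36 ± 0.06), TIPARP (0.30 ± 0.07) and CYP1A1 (0.75 ± 0.26), where 16.4% of all genes were called. In a fit of these 2 groups alone the AHRR, CYP1B1 and CYP1A1 differences kept their size and lost their calls (adjusted p of 0.0729, 0.0797 and 0.0755), and TIPARP stayed called. The CYP1A1 difference was also lost without the filter, with DESeq2, and without replicate 1 or 2 of wortmannin (0.65 and 0.66) or replicate 1 or 2 of LY294002 (0.63 and 0.69). Thioridazine was above LY294002 in 6 of the 7 genes, all but ARNT, where 40% of all genes were called, and CYP1B1 differed by 0.76 ± 0.06 (adjusted p = 1.34e-16). Of these, AHR (0.20 ± 0.07) was lost without replicate 2 or 3 of LY294002 (0.17 and 0.16) or replicate 3 of thioridazine (0.15). ALDH3A1 (0.89 ± 0.35) was lost without replicate 2 of LY294002 (0.63) or replicate 1 or 2 of thioridazine (0.77 and 0.82). Thioridazine was above wortmannin in AHR (0.30 ± 0.07), CYP1B1 (0.40 ± 0.06) and ALDH3A1 (0.91 ± 0.34), where 38.7% of all genes were called. That ALDH3A1 call was lost without replicate 1 or 3 of wortmannin (0.74 and 0.91) or replicate 1 or 2 of thioridazine (0.79 and 0.84). Without the filter and with DESeq2, both ALDH3A1 calls of thioridazine against another drug were lost.

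Other genes of the pathway were read from lists, beside the share of all genes called in each comparison. Against vehicle that share was 20.7% for peony high, 11.6% for poria high, 30.9% for licorice high, 48.4% for thioridazine, 39.3% for LY294002 and 31.7% for wortmannin. Of 10 further AhR targets, 9 were tested, since CYP1A2 had at most 7 counts in a library. With peony high 5 rose and 2 fell (median log2 fold change 0.51), led by the quinone reductase NQO1 (0.88 ± 0.06), the cytokine IL1B (1.08 ± 0.12) and the plasminogen activator inhibitor SERPINB2 (0.95 ± 0.10), while PTGS2 (-0.23 ± 0.09) and the amino acid carrier SLC7A5 (-0.27 ± 0.05) fell. With poria high 4 rose and 1 fell (median 0.32), NQO1 at 0.98 ± 0.05, IL1B at 0.78 ± 0.11 and SLC7A5 at -0.29 ± 0.05. Without peony high replicate 1, 5 rose and 1 fell (median 0.49), SLC7A5 at -0.25 ± 0.07, and PTGS2 was no longer called (adjusted p = 0.263). Against their own low dose, 6 rose and 0 fell with either extract, where 5.9% of all genes were called for peony and 5.51% for poria, and without peony high replicate 1 the peony count was again 6 and 0. Thioridazine raised 4 and lowered 2 of the 9 where 48.4% of all genes were called, with SERPINB2 at -1.95 ± 0.11 and SLC7A5 at 1.10 ± 0.04, and LY294002 raised 2 and lowered 5 where 39.3% were called. Wortmannin raised 3 and lowered 2 where 31.7% were called, with the cytochrome CYP2S1 at 0.68 ± 0.10. Licorice high raised 6 and lowered 1 where 30.9% of all genes were called, and 0 of the 5 targets described above were called there.

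NQO1 is also a target of NRF2, the sensor of oxidative stress, so 10 other NRF2 targets were read beside it. With poria high 9 of 10 rose where 11.6% of all genes were called (median 0.50), among them the cystine carrier SLC7A11 (0.97 ± 0.07), TXNRD1 (0.66 ± 0.05) and AKR1B10 (1.41 ± 0.11). With peony high 5 rose and 1 fell where 20.7% were called (median 0.16), and HMOX1, haem oxygenase, was at -0.41 ± 0.08, against 0.82 ± 0.07 with poria high, each relative to vehicle. Without peony high replicate 1 the peony count was again 5 and 1 (median 0.21), with HMOX1 at -0.33 ± 0.10. Thioridazine raised 6 and lowered 1 where 48.4% were called (median 0.31). ALDH3A1 rose in all 3 of these groups, and the part of the NRF2 genes in its change was not tested.

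Chaperones and partners of the receptor were read in the same way. More of them were called with the drugs than with peony or poria high, and the share of all genes called was also larger with the drugs. Of 8 genes, 1 rose with peony high where 20.7% of all genes were called (CUL4B, a ubiquitin ligase scaffold, 0.22 ± 0.04, and 0.25 ± 0.05 without replicate 1) and 2 with poria high where 11.6% were called (CUL4B, 0.15 ± 0.04, and HSP90AB1, 0.11 ± 0.04). With thioridazine 3 rose and 5 fell where 48.4% were called, HSP90AA1 at -0.67 ± 0.05, HSP90AB1 at -0.46 ± 0.04 and EPAS1 at 0.46 ± 0.05. With wortmannin 3 rose and 3 fell where 31.7% were called, and with LY294002 2 rose and 4 fell where 39.3% were called. HIF1A and EPAS1, which also pair with ARNT, had log2 fold changes of 0.03 ± 0.06 and -0.09 ± 0.06 with peony high. Of 10 hypoxia targets, 7 fell with peony high where 20.7% of all genes were called (median -0.52), BNIP3 at -1.17 ± 0.06, PDK1 at -0.82 ± 0.07 and NDRG1 at -0.75 ± 0.07, while VEGFA rose (0.29 ± 0.05). Without peony high replicate 1 the count was again 7 lower and 1 higher (median -0.55), with BNIP3 at -1.14 ± 0.08 and VEGFA at 0.33 ± 0.06. With poria high 5 fell and 0 rose where 11.6% were called (median -0.16).

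Of 6 genes that make or break down tryptophan-derived ligands, 3 were called higher with peony high where 20.7% of all genes were called, the kynureninase KYNU (0.78 ± 0.17), the dioxygenase TDO2 (0.73 ± 0.20) and the hydroxylase KMO (1.62 ± 0.56). Without peony high replicate 1 only TDO2 of the 6 stayed called (0.76 ± 0.24, adjusted p = 0.0358), while KYNU was at 0.34 ± 0.20 (adjusted p = 0.359) and KMO at 1.10 ± 0.70 (adjusted p = 0.411). KMO had 0 to 25 counts per library. With poria high 1 rose where 11.6% were called (KYNU, 0.64 ± 0.16), and with thioridazine 4 rose where 48.4% were called, KYNU at 1.04 ± 0.15, TDO2 at 1.00 ± 0.17 and IDO1 at 0.94 ± 0.29. All are low genes, with vehicle means of 1.98 CPM for KYNU, 1.57 CPM for TDO2, 0.51 CPM for IDO1 and 0.27 CPM for KMO. Against their low doses, 0 of 6 were called by edgeR with peony or poria high, also without peony high replicate 1, with 2 at an unadjusted p under 0.05 for peony (KYNU, adjusted p = 0.0807, and TDO2, adjusted p = 0.0516) and 0 for poria. POR, the reductase that feeds electrons to CYP1B1 and CYP1A1, was at -0.04 ± 0.05 with peony high (-0.02 ± 0.06 without replicate 1) and 0.04 ± 0.04 with poria high, and rose with thioridazine (0.49 ± 0.04).

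Across the 22 group means of log2 CPM, the genes most like CYP1B1 among 11538 candidates were MYZAP (Pearson r = 0.94), NPR2 (0.84), ANKRD13C (0.83), VEGFA (0.83) and DENND1B (0.83). Those most like TIPARP were GDA (0.88), CYP2S1 (0.86), STAT5A (0.82), PLEKHA3 (0.82) and CFLAR (0.80). The group means share the library sets and the few strong treatments, so these values describe the series and carry no p. MYZAP averaged 13.29 CPM in peony high and 7.42 CPM in vehicle libraries. Without peony high replicate 1, MYZAP was at r = 0.95 with CYP1B1 and at 14.31 CPM in the remaining peony high library, and the lowest r of the other named genes was 0.79 for CYP1B1 (DENND1B) and 0.70 for TIPARP (PLEKHA3).

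Some of the counts could hold reads of overlapping genes. In GENCODE 29, 11.3% of the CYP1B1 exon bases are also exon of CYP1B1-AS1 on the other strand, which had 2 to 23 counts per library. AHRR shares 3.18% of its exon bases with PDCD6 on the same strand, which had 1683 to 2586 counts, and AHR shares 29.4% with AC019117.2 on the same strand, not analysed here. Since no source used here states the strand setting, reads of overlapping antisense genes cannot be told apart.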

How the data were processed

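RNA of SW1783 cells was sequenced in 60 libraries. Per the labels' protocols, libraries were made from total RNA with the MGIEasy RNA Directional kit and read as 100 bp paired ends. The deposited values are expected counts per gene, not normalised, made by the authors with RSEM 1.3.3 after FastQC 0.11.9, Trim Galore 0.6.5 and STAR 2.7.3a on GRCh38, per the submitters' processing notes; the annotation and strand setting are not given in the sources used here. The table has 279 columns, of which 60 were used and 219 were not.

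Expected counts were rounded (9.5% of values were not whole at a tolerance of 1e-06). In edgeR 4.0.16, filterByExpr with a minimum count of 10 and a minimum total of 15 chose the genes, which were scaled by TMM and fitted in 1 robust quasi-likelihood model with 1 coefficient per group. Tests were two-sided, with Benjamini-Hochberg adjustment over 17919 genes in each of 33 comparisons: 21 with vehicle, 6 of high with low dose, 3 of drugs and 3 of extracts in 1 set. The SE is the log2 fold change divided by the square root of F. The common biological coefficient of variation was 0.051. The model was tested on simulated data.

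The genes and lists were chosen with earlier results of these data known. All 7 genes are named, with the 5 genes most like CYP1B1 and TIPARP and, from each list and comparison, at most 3 called members with the smallest p, plus those needed to account for the list. Alternatives were RLE scaling, no filter, the replicate number as a block, 2 groups alone, DESeq2 1.42.0, each library left out, and 5 libraries left out together (angelica low replicate 2, licorice medium replicate 3, and replicate 1 of ginseng low, of atractylodes high and of peony high). The lists in peony high were also read without its replicate 1, an alternative chosen after seeing the data. With 1 library left out, the dispersion trend of all 60 libraries was kept. Counting error limits CYP1A1 and ALDH3A1, at 9 to 75 and 2 to 55 counts per library.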

Additional observations from a re-analysis of the deposited data

How the results depend on the processing

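Of 70 called values in the 33 comparisons, 50 were called under every alternative that gave a value and 53 with every single library left out, and none of the 70 changed sign. All 7 genes passed the test over all groups with RLE scaling, with no filter, with the replicate block and with DESeq2's likelihood ratio test. The number of groups out of 21 in which AHR was called higher than vehicle was 2, with 4 for 2 groups alone and 1 to 2 with a library left out. AHRR was called lower in 1 group, with 2 under no filter, 2 under the replicate block, 3 for 2 groups alone, 0 without 5 libraries together and 0 to 2 with a library left out. TIPARP was called lower in 4 groups, with 8 under no filter, 8 under the replicate block, 9 for 2 groups alone, 7 with DESeq2 and 3 to 5 with a library left out. CYP1A1 was called higher in 2 groups (2 to 4 with a library left out) and lower in 0 (0 to 1). CYP1B1 was called lower in 1 group and in 0 for 2 groups alone. ALDH3A1 was called higher in 4 groups and in 2 with DESeq2, which gave no adjusted p for it in some comparisons. The cause of these changes was not tested. Over all genes, deviations of libraries with the same replicate number correlated at a mean r of 0.01 to 0.03 within a set. That average cannot show whether single genes follow the replicate number. In nearly all extract groups replicate 1 was the lowest library for TIPARP and the highest for AHRR. For atractylodes low, replicates 1 to 3 had 47.22, 50.60 and 51.17 CPM of TIPARP. The F-test of TIPARP over all groups had an adjusted p of 1.26e-18 in the main fit and 3.46e-23 with the replicate block. The replicate block ended 0 calls and added 9. Counts over all genes moved by over 1.5 times under some setting in 24 of 33 comparisons, for example 3710 for peony high against vehicle and 2061 without 5 libraries, 2074 for poria high and 3583 for 2 groups alone, and 169 for angelica high against low and 6 for 2 groups alone. Depth limits CYP1A1 and ALDH3A1, whose changes at lower doses may lie under what 2 to 75 counts can show.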
